A study of Mus musculus with 26 samples.

Results

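The genes described here are carriers of sugars, lactate and amino acids in transplanted HCmel3 mouse melanomas, measured in tumours under T cell therapy, in tumours that relapsed after it, and in untreated tumours. They were taken as every probe annotated to the solute carrier families Slc1, Slc2, Slc3, Slc6, Slc7, Slc16, Slc38 and Slc43, other than Slc2a1 and Slc7a11. This gave 77 of the 19051 genes named on the array, through 154 of its 45260 probes. No measured value entered that choice. The symbols also brought in Slc7a6os, a neighbour of Slc7a6 that is known as a nuclear import factor of RNA polymerase II, and the pseudogene Slc2a4rg-ps, which are not transporters and are named as such below. Slc7a5 has no probe under that symbol in the annotation used and was not analysed here, and the single Slc6a13 probe was left out because its cells were exchanged in the first table.

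Each of 26 tumour samples was hybridised to 1 Illumina MouseWG-6 v2.0 bead array, which reads amplified RNA with probes on beads. The host strain was C57BL6. The first deposited table holds 8 EDT tumours, taken between day 12 and day 20 after adoptive transfer began, and 8 NT tumours, which received no treatment. The second holds 5 relapse tumours, which grew back after that therapy, and 5 ctrl tumours, untreated. The therapy was the same scheme for EDT and relapse: the drug cyclophosphamide, CD8+ pmel-1 T cells specific for the pigment cell antigen gp100, an adenovirus carrying gp100 as vaccine, and CpG with polyI:C as innate stimuli. No label says that the samples of a group are separate animals, so a p-value reflects spread among the samples at hand, part of which may be technical. Nor is it said whether any tumour behind the second table, whose titles mention a repeated analysis, also stands in the first, and the age of the mice is not given in the labels used here.

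Sugars cross the membrane through the Slc2 (GLUT) carriers and lactate through members of Slc16, whose lactate carriers need the chaperone basigin (Bsg) or embigin (Emb). Amino acids use several families: the sodium-driven Slc1, Slc6 and Slc38 carriers load the cell, while the Slc7 light chains mostly exchange one amino acid for another and reach the membrane bound to the heavy chain Slc3a2 (CD98). Tumour cells and activated leukocytes are both known to draw on these routes.

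Detection comes first, because most of these genes were not detected on enough arrays to be tested. A probe counts as detected on an array when its deposited detection p was under 0.01. Of the 154 probes, 78 were detected on 0 of 26 arrays, and for 30 of the 77 genes no probe was detected on any array. These 30 include Slc16a1, the main lactate carrier of many tumours, Slc1a5, a glutamine carrier with 5 probes here, Slc43a2, the arginine carrier Slc7a1 and the fructose carrier Slc2a5. A further 19 genes were detected on some arrays but on fewer than 5 of any group, the lowest number required for testing. The hypoxia-linked lactate exporter Slc16a3 is one of them, with detection on 3 arrays at most for any of its probes, and Slc2a13 reached 12 arrays. The remaining 28 genes (36.4%), through 38 probes (24.7%), passed and were tested, and 17 genes had a probe detected on all 26 arrays. Across the whole array 16624 of 45260 probes and 9553 of 19051 genes passed, in each case a larger share than among the transporters.

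**Figure D1:**
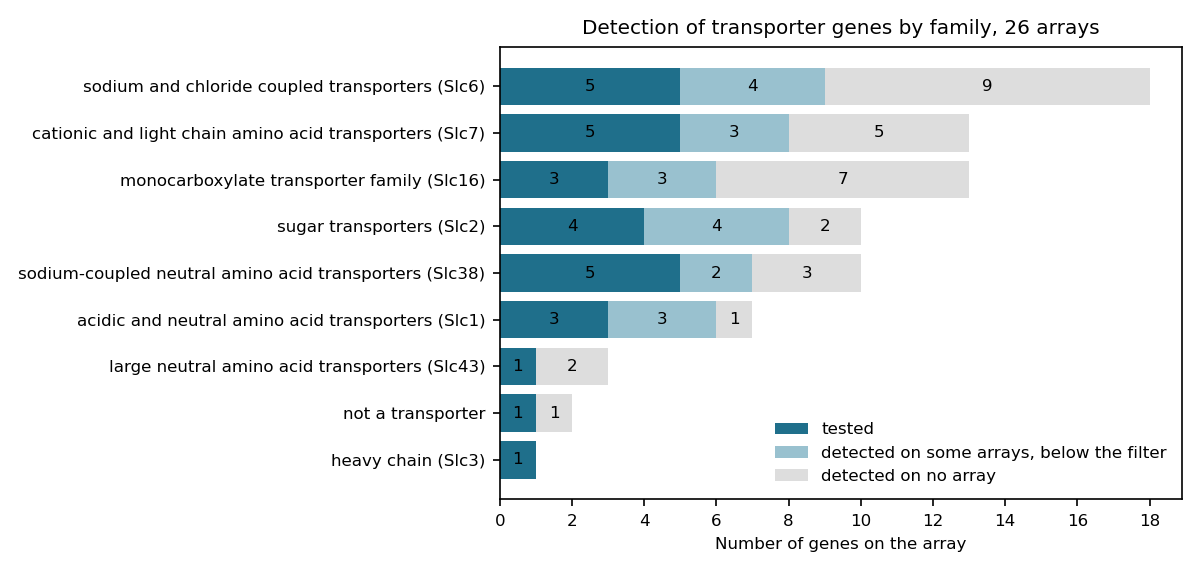
Number of genes on the array in each transporter family, split into those tested, those detected on some arrays but under the filter, and those detected on no array; the x axis counts genes. The Slc6 family had the most undetected genes, 9 of 18, while the Slc38 family had 5 of 10 tested.

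A missing signal is not evidence of a missing transcript on this platform. The signals of the 78 undetected probes ran from 74.8 to 146.7, against array medians of 89.6 to 136.0 over all probes. Between 18 and 83 beads stood behind each of the 154 transporter probes in the second table. Bsg, a gene that nearly all cells use, was itself detected with its tested probe on 2 of 8 EDT, 5 of 8 NT, 0 of 5 relapse and 0 of 5 ctrl arrays. The number of transporter probes detected per array ran from 33 to 41 in EDT (median 38.5) and from 29 to 43 in NT (median 33.5). In relapse it ran from 37 to 53 (median 42), against 31 to 42 in ctrl (median 35). As shares of the 154 probes these are 24.5% ± 1.83 in EDT and 22.4% ± 2.92 in NT (SD, n = 8 each), and 29.0% ± 4.56 in relapse and 23.5% ± 3.02 in ctrl (SD, n = 5 each). Over all probes on the array the detected share was 35.3% in EDT, 33.0% in NT, 38.9% in relapse and 35.4% in ctrl, the larger share in each group.

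The tissue itself differed between groups in ways that touch every value below. The summed signal of 10 melanocyte markers was 48636 to 133670 in EDT and 113252 to 145597 in NT, with 4 of 10 lower, and 2723 to 81877 in relapse and 139915 to 150552 in ctrl, with 10 of 10 lower and Tyr undetected in all relapse tumours. Macrophage and monocyte markers summed to 19175 to 38555 in EDT and 3765 to 10017 in NT (7 of 9 tested higher), and to 11830 to 47309 in relapse and 5152 to 10372 in ctrl (6 of 9 higher). Neutrophil markers had 4 of 7 higher in both comparisons and T cell markers 8 of 8 in EDT and 4 of 8 in relapse. Endothelial markers had 4 of 8 lower in EDT and 1 of 8 lower in relapse. Over all tested genes 14.5% were higher and 15.1% lower in EDT, and 13.3% and 17.5% in relapse. The T cell markers Cd247, Cd28, Cd2 and Cd3e and the neutrophil markers Clec4e and Retnlg passed the detection filter only through EDT. They are high there, so no test of EDT against NT is read from them. The endothelial marker Tek and the macrophage marker Cd163 passed only through NT and were called in neither comparison. All of these stay in the counts above. In bulk tumour RNA fewer cells of a type and less RNA per cell cannot be told apart, and the part of these markers in the transporter results was not tested. Relapse replicate 3 stood apart, with the highest melanocyte sum of the relapse tumours (81877, against 2723 to 51403 in the other 4) and the lowest macrophage sum (11830, against 26280 to 47309), so relapse values are given with and without it where a call changes.

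Array slides were also unevenly shared. Only slide 5 held both EDT and NT tumours, 2 EDT against 3 NT, while slides 6 and 7 each held relapse and ctrl. Within-slide values are given beside the changes, and the small slides limit their precision. All levels are normalized log2 signals, all changes are differences of group means on that scale with their standard error (SE), and adjusted p is limma's moderated test with Benjamini-Hochberg adjustment over 9553 genes, two-sided. The tables were normalized separately, so levels are compared only within a table.

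In EDT against NT, 10 of the 28 tested transporter-family genes changed at adjusted p under 0.05, with 4 higher and 6 lower. Over all genes tested, 29.6% were called, 14.5% higher and 15.1% lower, so the transporters' share of 35.7% lay near the background. Their median change was −0.20, beside −0.05 over all genes. The arginine carrier Slc7a2 and the lysosomal hexose carrier Slc2a6 were higher, the CD98 heavy chain Slc3a2 and its light chain Slc7a8 were lower, and the vesicular amino acid carrier Slc6a17 was lower still. With array medians aligned in place of quantile normalization, the split turned to 6 higher and 4 lower among these genes and to 2275 higher and 174 lower over all genes, against 1385 and 1446 in the quantile-normalized data, and the median over all genes was 0.29 in place of −0.05; every one of the 10 called genes kept its direction. With the authors' processed values the split was 6 higher and 5 lower, and 1747 higher and 756 lower over all genes. With slide as a fixed block, Slc7a2 and Slc2a4 kept their calls and the other 8 did not, while a random slide block kept 8 of the 10; all 10 kept their direction in both.

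In relapse against ctrl, 10 of 28 changed as well, 4 higher and 6 lower, where 30.8% of all genes were called, 13.3% higher and 17.5% lower. The glycine carrier Slc6a9 and the glutamine carrier Slc38a1 were higher and Slc6a17, Slc7a8, Slc2a8 and Slc2a4 were lower. The median change was −0.07, the same as over all genes. Aligned medians gave 6 higher and 2 lower, with 2086 higher and 656 lower over all genes against 1270 and 1674, and the median over all genes was 0.30 in place of −0.07; directions of the 10 called genes again held, but the calls of Slc7a8 (−1.04, adjusted p = 0.114 by limma), Slc2a4, Slc6a8 and Slc7a6os were lost. With the authors' processed values 4 were higher and 4 lower, and 1536 higher and 1314 lower over all genes. With slide as a fixed block all 10 calls were kept; slide 6 alone kept 1 and slide 7 alone 5. Slc2a4, Slc2a8, Slc6a9, Slc6a17, Slc7a8 and Slc38a1 were called in both comparisons, and all but Slc38a1 changed the same way in each. The share of all genes called in both was not computed, so this overlap is not read as particular to the transporters. Slc2a4 is counted in both comparisons although it passed the detection filter only through NT and ctrl, where it is high.

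**Figure D2:**
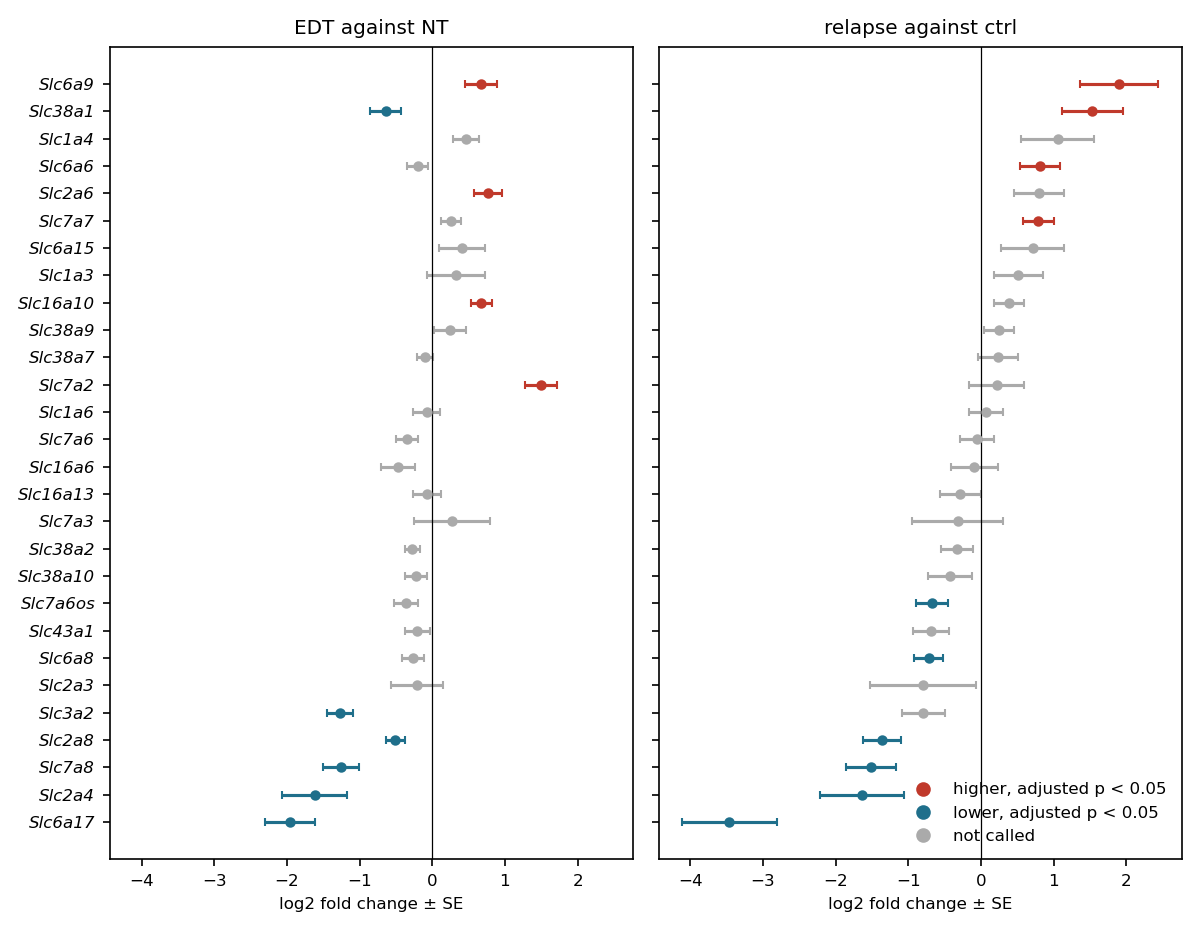
Change of each of the 28 tested genes (points, log2 fold change on the x axis; bars, ± SE) in EDT against NT on the left and relapse against ctrl on the right, ordered by the relapse change. Slc6a17 is the lowest in both, at −1.95 and −3.46, while Slc38a1 lies below 0 in EDT and above 0 in relapse.

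Among the sugar carriers, Slc2a4 (GLUT4), the insulin-regulated glucose carrier of muscle and fat, measured lower in both treated groups. Slc2a4 passed the detection filter only through NT and ctrl, where it is high. Its adjusted p-values below are therefore not read as evidence of a change. Its levels were 4.59 to 5.79 in EDT (median 5.30) and 4.84 to 8.68 in NT (median 7.36), a change of −1.62 ± 0.45 (adjusted p = 0.0113 by limma). The groups overlapped, because the 3 NT tumours of slide 1 (5.77, 4.84 and 5.61) were as low as the EDT tumours. The other NT tumours, on slides 4 and 5, measured 7.24 to 8.68, so the NT values split by slide. The part of the slide was not tested. The probe was detected on 4 of 8 EDT and 6 of 8 NT arrays. Within slide 5 the change was −2.83. Relapse tumours had 4.93, 5.57, 7.26, 4.86 and 4.62, against 6.58, 7.82, 7.96, 5.42 and 7.63 in ctrl, a change of −1.63 ± 0.58 (adjusted p = 0.0495 by limma), with detection on 2 of 5 relapse and 5 of 5 ctrl arrays. Without background correction the changes were −0.81 in EDT and −0.72 in relapse (adjusted p = 0.0138 and 0.0725 by limma). The high relapse value is replicate 3, and without it the change was −2.09 (adjusted p = 0.00536 by limma). This call was held by the narrowest margin: it was lost when any 1 of relapse replicates 1, 2, 4 and 5 or ctrl replicates 1, 2, 3 and 5 was left out (adjusted p up to 0.114 by limma). Skeletal muscle markers, of which 0 of 5 tested were called in either comparison, summed to 240 to 12121 in EDT and 153 to 19235 in NT, and to 430 to 7011 in relapse and 335 to 22008 in ctrl. The 1 tested adipocyte marker, Adipoq, ran from 21.0 to 380.7 in EDT and 22.4 to 1443 in NT, and from 25.0 to 45.3 in relapse and 24.8 to 32.0 in ctrl; the part of either tissue was not tested.

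Slc2a8 (GLUT8), an intracellular hexose carrier, was lower in both comparisons. Its levels were 7.07 to 7.84 in EDT (median 7.40) and 7.69 to 8.18 in NT (median 7.94), a change of −0.51 ± 0.13 (adjusted p = 0.00620 by limma), with 6 of 8 EDT tumours below every NT tumour. In relapse it measured 6.29, 6.51, 7.31, 6.0 and 6.64, and in ctrl 7.96, 7.38, 8.29, 7.80 and 8.15, so the groups did not overlap. The change was −1.37 ± 0.26 (adjusted p = 0.00358 by limma), −1.17 on slide 6 and −1.66 on slide 7. The EDT call was lost with aligned medians, where the change was −0.12, and within slide 5 it was −0.53 without reaching the threshold.

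Slc2a6 (GLUT6), found on lysosomes and known from macrophages, was higher in EDT, with 9.43 to 10.36 (median 9.75) against 8.65 to 9.97 in NT (median 8.89). The change was 0.77 ± 0.19 (adjusted p = 0.00596 by limma), and 0.84 within slide 5. In relapse the values were 10.47, 9.54, 10.66, 9.33 and 9.75, and in ctrl 8.86, 8.92, 9.67, 8.40 and 9.90. That difference of 0.80 ± 0.34 was similar in size but did not reach the threshold (adjusted p = 0.0954 by limma), but it did at 1.18 with aligned medians (adjusted p = 0.0209 by limma). The glucose carrier Slc2a3 (GLUT3) differed by −0.21 ± 0.36 in EDT and −0.79 ± 0.73 in relapse (adjusted p = 0.691 and 0.428 by limma), and relapse tumours spread widely, at 11.06, 9.73, 11.66, 7.59 and 8.44, against 11.16, 10.91, 10.65, 8.89 and 10.84 in ctrl.

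None of the classical lactate carriers of the Slc16 family could be tested, since Slc16a1, Slc16a7 and Slc16a8 were detected nowhere and Slc16a3 on too few arrays. The tested members were Slc16a10, Slc16a6 and Slc16a13. Slc16a10 carries aromatic amino acids rather than lactate. Its signal was 5.10 to 5.93 in EDT (median 5.55) and 4.53 to 5.27 in NT (median 4.88), with 6 of 8 EDT tumours above all NT tumours and detection on 6 of 8 EDT and 0 of 8 NT arrays. The measured difference was 0.68 ± 0.14 (adjusted p = 0.00160 by limma) and 0.45 within slide 5, but since NT lay below detection on all its arrays no fold is given. In relapse it was 0.39 ± 0.21 (adjusted p = 0.173 by limma), and 0.73 with aligned medians (adjusted p = 0.0271 by limma). Slc16a6 differed by −0.47 ± 0.23 in EDT and −0.09 ± 0.33 in relapse, and Slc16a13 by −0.07 ± 0.19 and −0.28 ± 0.28, none past the threshold.

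A list of 27 genes that work beside these carriers, chaperones, enzymes and regulators of sugar and amino acid use, had 23 tested members. In EDT 10 of the 23 were higher and 3 lower, where 14.5% and 15.1% of all genes were. In relapse 2 were higher and 3 lower, where 13.3% and 17.5% of all genes were. The EDT counts include Nos2, Arg2 and Ido1, which passed the filter only through EDT, and Bsg, which passed only through NT. Each is high in that group, so no test of EDT against NT is read from them. Of the chaperones, Emb was 1.26 ± 0.19 higher in EDT (adjusted p = 0.000108 by limma). Bsg differed by −0.97 ± 0.31 near background, with detection on 2 of 8 EDT and 5 of 8 NT arrays. The lactate dehydrogenase Ldha differed by −0.07 ± 0.11 (adjusted p = 0.642 by limma). Hexokinase Hk3, a myeloid enzyme that traps glucose after uptake, was 2.22 ± 0.35 higher in EDT (adjusted p = 0.000136 by limma). The arginine users Arg1 and Ass1 were higher by 2.22 and 1.72. For Nos2 the difference was 1.46, with detection on 5 of 8 EDT and 1 of 8 NT arrays. In relapse the asparagine synthetase Asns was 2.09 ± 0.50 higher (adjusted p = 0.00973 by limma). The glutamine synthetase Glul differed by −2.16 ± 0.38, with detection on 2 of 5 relapse and 5 of 5 ctrl arrays. Glul is counted as lower in both comparisons but passed the filter only through NT and ctrl. It is high in those groups, so no test is read from it.

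**Figure D3:**
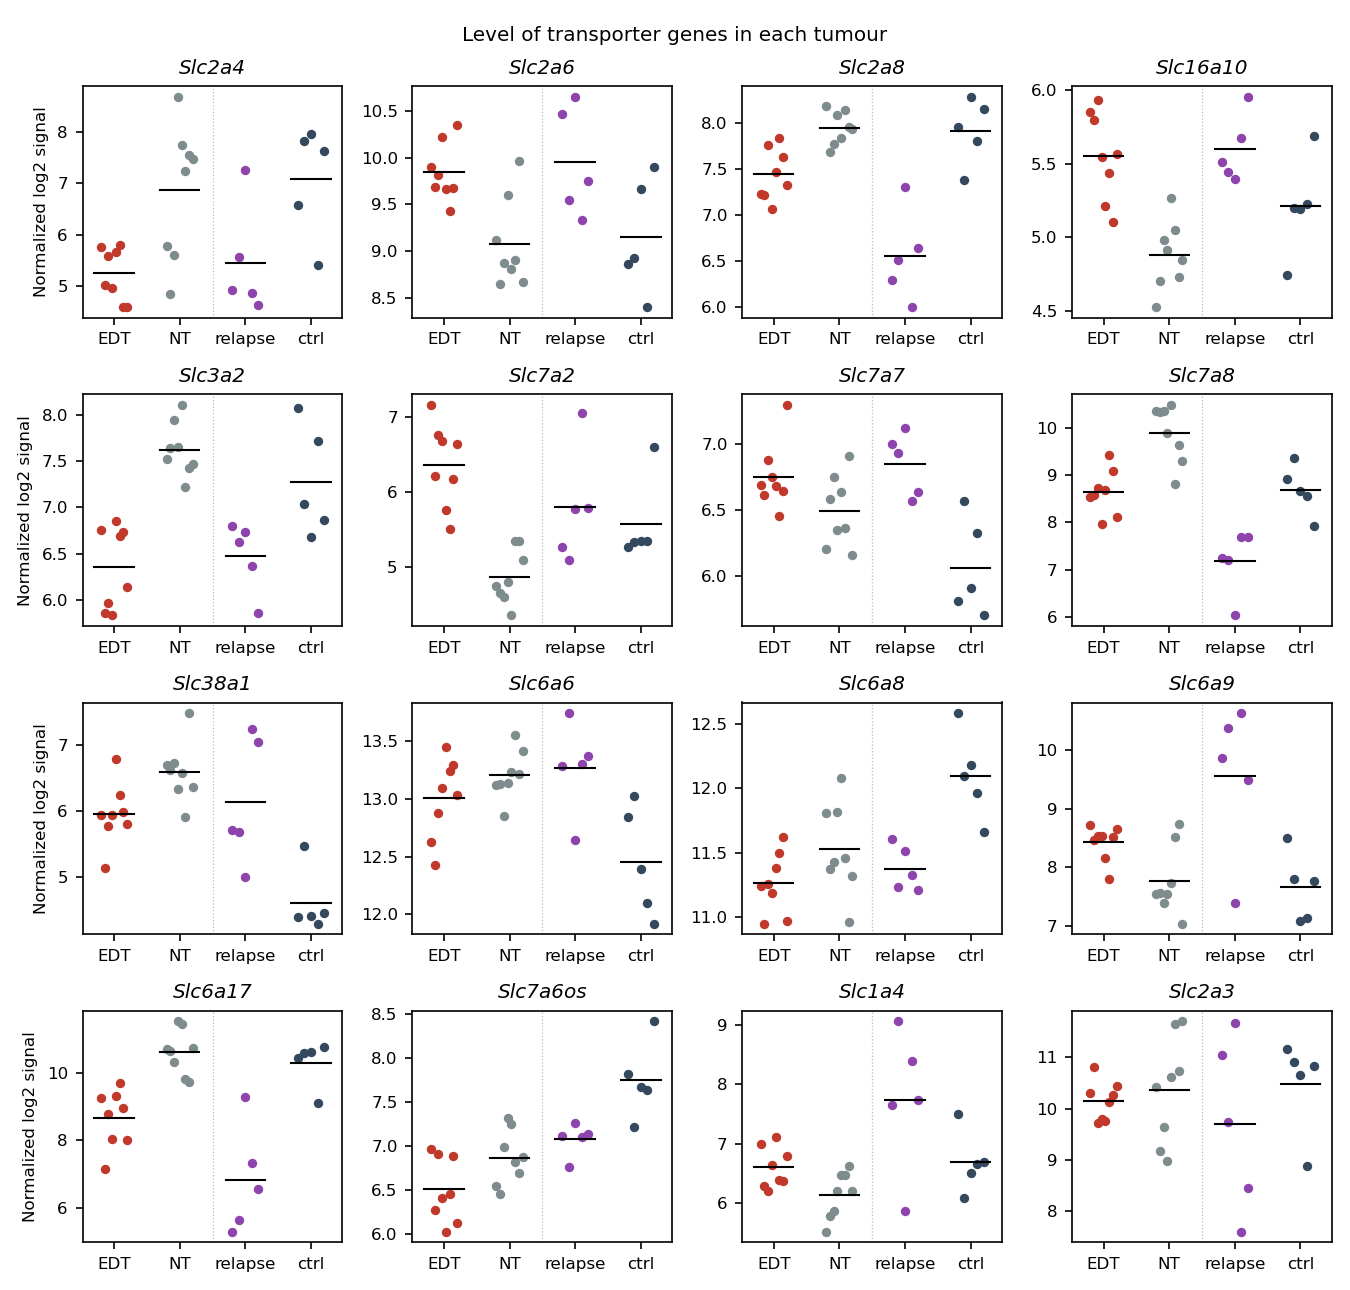
Normalized log2 signal of 16 genes in each tumour (points) with the group mean (line) for EDT, NT, relapse and ctrl; the dotted line separates the 2 tables, which were normalized apart. Slc7a2 in EDT (5.51 to 7.16) lies above all NT tumours, Slc3a2 in EDT (5.84 to 6.86) lies below all NT tumours, and relapse replicate 3 sits among the ctrl tumours for Slc6a9.

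The arginine carrier Slc7a2 (CAT2), which supplies nitric oxide and arginase pathways in macrophages, was higher in EDT. Its levels were 5.51 to 7.16 in EDT (median 6.43) and 4.36 to 5.35 in NT (median 4.78), and every EDT tumour lay above every NT tumour. Non-overlap upward was seen for 4.58% of all genes and for this 1 transporter. The change was 1.49 ± 0.22 (adjusted p = 7.68e-05 by limma), with detection on 8 of 8 EDT but 1 of 8 NT arrays, so the NT level is close to background, and without background correction the change was 0.59 (adjusted p = 0.000529 by limma). Within slide 5 it was 1.15, with adjusted p = 0.0584 by limma when slide 5 was fitted alone and 0.0393 with slide as a fixed block. In relapse the values were 5.26, 5.10, 5.77, 7.05 and 5.79, against 5.27, 5.33, 5.35, 5.35 and 6.60 in ctrl, a difference of 0.22 ± 0.38 (adjusted p = 0.689 by limma). The EDT effect exceeded the relapse effect by 1.28 ± 0.42 (adjusted p = 0.0402 by limma), a call that was lost when any 1 of 13 of the 26 tumours was left out (adjusted p up to 0.0890 by limma) and in 7 of 10 alternative settings (adjusted p up to 0.217 by limma). The related Slc7a3 (CAT3) spread from 4.66 to 8.27 in NT and differed by 0.28 ± 0.52 in EDT and −0.32 ± 0.62 in relapse.

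Slc3a2, the heavy chain that carries the exchangers to the surface, was lower in EDT without overlap: 5.84 to 6.86 in EDT (median 6.41), against 7.22 to 8.11 in NT (median 7.58). Downward non-overlap was seen for 1.49% of all genes, and for 2 transporters, Slc3a2 and Slc6a17. The change was −1.27 ± 0.18 (adjusted p = 5.92e-05 by limma), and −0.93 within slide 5 (adjusted p = 0.123 by limma). Relapse values of 6.80, 6.63, 6.73, 6.36 and 5.86, against 8.07, 7.04, 6.68, 7.72 and 6.87 in ctrl, gave −0.80 ± 0.30 (adjusted p = 0.0598 by limma). Without relapse replicate 3 the difference was −0.86 and passed the threshold (adjusted p = 0.0468 by limma), as it did at −0.94 without ctrl replicate 3 (adjusted p = 0.0425 by limma).

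The light chain Slc7a8 (LAT2), an exchanger of neutral amino acids, was lower in both comparisons. EDT tumours measured 7.98 to 9.42 (median 8.64), against 8.82 to 10.49 in NT (median 10.12), with 6 of 8 EDT tumours below all NT tumours and a change of −1.26 ± 0.25 (adjusted p = 0.00125 by limma). On slide 5 alone the change was −0.65 (adjusted p = 0.410 by limma). Relapse tumours measured 7.26, 7.21, 6.03, 7.69 and 7.68, and ctrl 8.92, 9.37, 8.67, 8.56 and 7.92, without overlap, a change of −1.51 ± 0.35 (adjusted p = 0.00790 by limma). Downward non-overlap in relapse held for 10.7% of all genes and for 3 of 28 transporters, Slc7a8, Slc2a8 and Slc6a8; 0 were above without overlap, against 7.43% of all genes. On slide 6 the change was −2.15 and on slide 7 −0.55. Relapse replicate 3 is the lowest of all 10 tumours for this gene, though it lay nearest to ctrl for Slc6a17 and Slc6a9.

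Slc7a7 (y+LAT1), the light chain of cationic amino acid export in kidney, gut and macrophages, was higher in relapse, at 7.0, 6.94, 7.12, 6.57 and 6.64, against 5.81, 6.57, 5.91, 6.33 and 5.71 in ctrl. The change was 0.79 ± 0.22 (adjusted p = 0.0182 by limma), 0.92 on slide 6 and 0.59 on slide 7. In EDT it was 0.26 ± 0.14 (adjusted p = 0.167 by limma), but it passed the threshold at 0.63 with aligned medians (adjusted p = 0.0182 by limma) and at 0.42 with the authors' values (adjusted p = 0.0382 by limma). The related Slc7a6 (y+LAT2) differed by −0.35 ± 0.15 in EDT and −0.06 ± 0.23 in relapse, neither past the threshold. Slc7a7 and Slc7a8 lie 302.1 kb apart on chromosome 14 (GRCm38.p6) and moved in opposite directions in relapse.

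The promoter sequences of the heavy chain and of these 2 light chains are shown because the proteins work as pairs while their transcripts did not all move the same way: 250 bases before the annotated start, from RefSeq on GRCm38.p6, written in the gene's direction. Slc3a2 is at chr19:8713898-8714147, minus strand, Slc7a8 at chr14:54781887-54782136, minus strand, and the second of 5 annotated Slc7a7 starts at chr14:54417703-54417952, minus strand. Capitals mark TGATGCAA, a core of the amino acid response element.
Slc3a2: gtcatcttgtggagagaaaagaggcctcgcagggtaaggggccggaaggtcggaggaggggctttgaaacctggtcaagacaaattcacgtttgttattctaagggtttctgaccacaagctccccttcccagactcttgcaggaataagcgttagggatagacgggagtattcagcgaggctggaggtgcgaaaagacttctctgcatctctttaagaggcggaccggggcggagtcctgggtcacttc
Slc7a8: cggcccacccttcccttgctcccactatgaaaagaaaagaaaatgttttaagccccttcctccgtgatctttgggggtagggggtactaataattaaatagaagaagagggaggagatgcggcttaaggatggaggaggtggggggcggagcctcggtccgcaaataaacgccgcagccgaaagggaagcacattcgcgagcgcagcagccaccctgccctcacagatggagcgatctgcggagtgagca
Slc7a7: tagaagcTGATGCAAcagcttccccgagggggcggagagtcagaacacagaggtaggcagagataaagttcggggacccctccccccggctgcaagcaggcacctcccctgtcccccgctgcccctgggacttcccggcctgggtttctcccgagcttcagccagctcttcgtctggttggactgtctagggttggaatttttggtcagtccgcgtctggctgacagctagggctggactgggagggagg
TGATGCAA, searched on both strands, is in 0.79% of 32851 promoters of this length. The match begins 243 bases before that Slc7a7 start and is a description of the letters only. Promoters were found for 18 of the 28 tested genes. Of the 26 promoters of these genes, 1 holds TGATGCAA. The second Slc7a7 start is shown because it holds the match, and the first of the 5 starts holds none. CACGTG (E-box) and TCATGTG (M-box core) were searched as well, and none of the promoters shown holds either. The motifs were chosen with the expression values known.

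The vesicular carrier Slc6a17 (NTT4), known from neurons, showed the largest fall among the tested transporters in both comparisons. EDT tumours measured 7.15 to 9.70 (median 8.87), against 9.73 to 11.51 in NT (median 10.66), with no overlap, a change of −1.95 ± 0.34 (adjusted p = 0.000413 by limma) and −1.60 within slide 5 (adjusted p = 0.0884 by limma). Relapse tumours measured 5.31, 5.66, 9.29, 7.34 and 6.57, and ctrl 10.42, 10.58, 10.60, 9.11 and 10.75. The change was −3.46 ± 0.65 (adjusted p = 0.00304 by limma), 11.0-fold lower, −3.78 on slide 6 and −2.98 on slide 7. Only relapse replicate 3 overlaps ctrl, and without it the change was −4.07 (adjusted p = 6.47e-05 by limma). The 4 relapse tumours with the lowest Slc6a17 are the 4 with the lowest melanocyte sums, but the order within those 4 differed. Relapse replicate 1 had the lowest Slc6a17 (5.31) at a melanocyte sum of 51403, and replicate 4 had 7.34 at a sum of 11205. The part of that cell type was not tested. The gap between the EDT and relapse effects (EDT minus relapse) was 1.51 ± 0.71 (adjusted p = 0.145 by limma), and 2.12 without relapse replicate 3 (adjusted p = 0.0108 by limma).

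Slc6a9 (GlyT1), a glycine carrier, was higher in both. In EDT it measured 7.80 to 8.72 (median 8.53), against 7.04 to 8.74 in NT (median 7.55), a change of 0.67 ± 0.22 (adjusted p = 0.0275 by limma) and 0.49 within slide 5; leaving out EDT replicate 1 or 8 or NT replicate 3 or 8 ended that call (adjusted p up to 0.0538 by limma). Relapse values were 9.87, 10.38, 7.40, 10.64 and 9.50, and ctrl values 8.51, 7.80, 7.08, 7.13 and 7.77. The change was 1.90 ± 0.54 (adjusted p = 0.0207 by limma), 1.42 on slide 6 and 2.62 on slide 7. It reached 2.44 without relapse replicate 3, the one relapse tumour inside the ctrl range (adjusted p = 0.000257 by limma), and lost its call without relapse replicate 4 or ctrl replicate 3 (adjusted p up to 0.0518 by limma). The difference between the effects was −1.23 ± 0.54 (adjusted p = 0.112 by limma), and −1.77 without relapse replicate 3 (adjusted p = 0.00206 by limma).

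Another pair of Slc6 carriers changed in relapse. The creatine carrier Slc6a8 was lower without overlap, at 11.60, 11.23, 11.51, 11.32 and 11.21, against 12.59, 12.09, 12.18, 11.96 and 11.66 in ctrl, a change of −0.72 ± 0.20 (adjusted p = 0.0193 by limma), −0.84 on slide 6 and −0.55 on slide 7; without relapse replicate 5 adjusted p was 0.0503. The taurine carrier Slc6a6 was higher, at 13.29, 13.75, 12.64, 13.31 and 13.37, against 12.85, 13.03, 12.39, 12.10 and 11.92 in ctrl, a change of 0.81 ± 0.27 (adjusted p = 0.0391 by limma), 0.47 on slide 6 and 1.33 on slide 7. It lost its call without any 1 of relapse replicates 1, 2, 4 and 5 or ctrl replicates 3, 4 and 5 (adjusted p up to 0.0902 by limma). In EDT Slc6a6 differed by −0.20 ± 0.15 and the effects differed by −1.01 ± 0.28 (adjusted p = 0.0171 by limma), a call lost with aligned medians (adjusted p = 0.153), with the mean over probes (−0.38, adjusted p = 0.191) and with slide as a fixed block (adjusted p = 0.0635), all by limma. With the mean over probes the relapse change itself was 0.24 (adjusted p = 0.312 by limma). Slc6a15, a branched-chain amino acid carrier of brain, did not reach the threshold in either (0.41 ± 0.32 in EDT, 0.71 ± 0.43 in relapse).

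The glutamine and neutral amino acid carrier Slc38a1 (SNAT1) was the only tested transporter called in opposite directions. It measured 5.14 to 6.79 in EDT (median 5.94), against 5.92 to 7.49 in NT (median 6.60), a change of −0.64 ± 0.21 (adjusted p = 0.0324 by limma) and −0.69 within slide 5. That call was fragile: it was lost in 8 of 12 alternative settings and without any 1 of EDT replicates 2, 3, 4 and 8 or NT replicates 1, 3 and 7 (adjusted p up to 0.0635 by limma). In relapse it measured 5.71, 5.69, 5.01, 7.25 and 7.05, against 4.40, 5.47, 4.41, 4.30 and 4.46 in ctrl, where it was detected on 1 of 5 arrays against 4 of 5 in relapse. The change was 1.53 ± 0.42 (adjusted p = 0.0184 by limma), 0.71 on slide 6 and 2.77 on slide 7. Because the ctrl level is near background its size depends on the correction: without background correction it was 0.57 (adjusted p = 0.0422 by limma). The effects differed by −2.17 ± 0.45 (adjusted p = 0.00272 by limma), a call held in all 10 alternative settings and in all 26 fits that left out 1 tumour, though the difference was −0.86 without background correction. The untreated groups themselves differed in detection, with 8 of 8 NT arrays and 1 of 5 ctrl arrays, beside 7 of 8 in EDT. The part of that difference in the opposite calls was not tested.

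Slc38a2 (SNAT2), a carrier known to rise when amino acids run short, depended on the probe. The brightest probe, ILMN_2955671, differed by −0.27 ± 0.11 in EDT (adjusted p = 0.0627 by limma) and −0.34 ± 0.22 in relapse (adjusted p = 0.264 by limma). The second probe, ILMN_1244123, measured 10.02, 11.12, 8.98, 11.12 and 10.87 in relapse, against 9.86, 9.59, 8.62, 8.50 and 8.52 in ctrl, and was higher by 1.41 ± 0.44 (adjusted p = 0.0294 over the passing probes by limma). Probe disagreement also touched Slc6a6 in relapse, where the dimmer probe differed by −0.32 ± 0.22 against 0.81 for the brighter, and Slc7a8, where the dimmer probe gave −0.34 ± 0.32 in relapse but −1.18 ± 0.28 in EDT. In relapse the brightest Slc16a6 probe gave −0.09 and its other passing probes 0.72 ± 0.27 and 0.48 ± 0.38 (adjusted p = 0.0625 and 0.353 by limma), and the Slc16a13 probes gave −0.28 and 0.13. The 3 Slc38a1 probes kept 1 direction in each comparison, −0.64, −0.62 and −0.57 in EDT and 1.53, 0.75 and 0.97 in relapse. Of the other Slc38 members, the lysosomal carriers Slc38a7 and Slc38a9 (a known arginine sensor for mTORC1) and Slc38a10 reached the threshold in neither comparison.

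**Figure D4:**
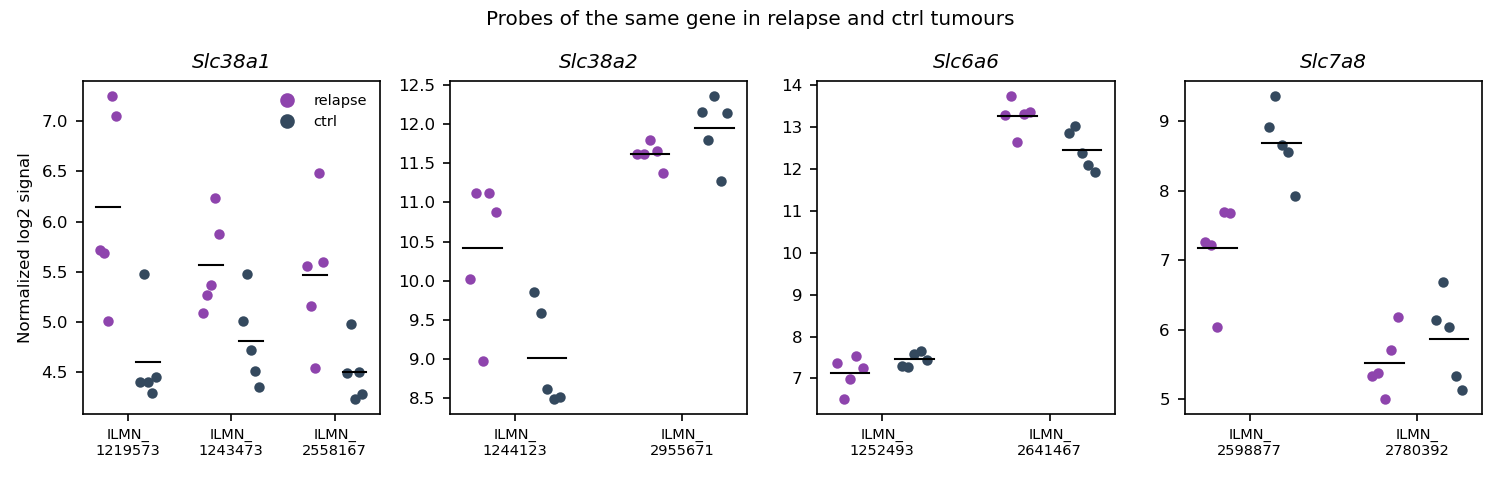
Normalized log2 signal of every passing probe of 4 genes in relapse and ctrl tumours (points, 5 each; lines, means), with probe identifiers on the x axis. The Slc38a1 probes agree in direction, whereas the Slc38a2 probes part: ILMN_1244123 is higher in relapse by 1.41 and ILMN_2955671 differs by −0.34.

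Of the Slc1 family, Slc1a4 (ASCT1), a serine and neutral amino acid exchanger, was the member that relapse replicate 3 decided. Relapse values were 7.65, 9.06, 5.85, 8.40 and 7.73, against 7.49, 6.07, 6.51, 6.65 and 6.69 in ctrl, so 4 of 5 relapse tumours lay above every ctrl tumour and replicate 3 lay below them all. The difference of 1.06 ± 0.50 did not reach the threshold (adjusted p = 0.126 by limma), whereas without replicate 3 it was 1.53 ± 0.34 (adjusted p = 0.00491 by limma). In EDT it was 0.46 ± 0.18 (adjusted p = 0.0594 by limma), and 0.51 to 0.53 with a call when EDT replicate 3 or NT replicate 5, 6 or 7 was left out; it was also called at 0.79 with aligned medians and 0.59 with the authors' values (adjusted p = 0.0193 and 0.0205 by limma). The effects differed by −1.07 without relapse replicate 3 (adjusted p = 0.0317 by limma), against −0.59 with it (adjusted p = 0.415 by limma). The glutamate carriers Slc1a3 and Slc1a6 passed the detection filter only through EDT, with detection on 5 of 8 EDT and 1 of 8 NT arrays for Slc1a3 and on 7 of 8 EDT and 4 of 8 NT arrays for Slc1a6, and no test of EDT against NT is read from them.

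Slc43a1 (LAT3), a carrier of large neutral amino acids, passed the filter only through ctrl. It measured 4.94, 5.25, 5.95, 5.16 and 4.88 in relapse, against 5.57, 5.99, 6.34, 5.53 and 6.17 in ctrl, with detection on 3 of 5 relapse and 5 of 5 ctrl arrays. Since the ctrl group, where it is high, brought it past the filter, no test is read from that difference. Slc7a6os, the import factor that is no transporter, was lower in relapse by −0.67 ± 0.23 on the log2 scale (adjusted p = 0.0403 by limma), at 7.11, 6.76, 7.26, 7.10 and 7.13 against 7.81, 7.22, 7.66, 7.63 and 8.41 in ctrl. Its call was lost when any 1 of relapse replicates 1, 2, 4 and 5 or ctrl replicates 1, 3, 4 and 5 was left out (adjusted p up to 0.0909 by limma). The call was kept in only 5 of 12 alternative settings (adjusted p up to 0.557 by limma). The second passing Slc7a6os probe, ILMN_3162446, gave −0.28 ± 0.22 in relapse (adjusted p = 0.339 over the passing probes by limma).

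Across the 28 genes, 4 had an EDT effect that differed from the relapse effect, where 16.6% of all genes did, 9.76% with the EDT effect above and 6.8% with it below. Slc7a2 and Slc2a8 had the EDT effect above the relapse effect, Slc2a8 by 0.86 ± 0.26 (adjusted p = 0.0265 by limma), and Slc38a1 and Slc6a6 had it below. For Slc2a8 this call was lost without relapse replicate 4 or ctrl replicate 3 or 5 (adjusted p up to 0.0640 by limma), and without background correction, with aligned medians and with slide as a fixed block (adjusted p up to 0.178 by limma). The remaining 24 genes had differences that did not reach the threshold, which does not show that the effects were alike.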

How the data were processed

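RNA of 26 tumours was read on bead arrays, 1 each. The deposited signal per probe is a linear intensity, uncorrected for background and not normalized, judging by its values, and the authors deposited a detection p-value beside it. Per the file headers, the second table adds a bead standard error, a signal scale value, and a count of beads per probe; the authors' processed values are log2 and served as an alternative. The scanner software is not given in the sources used here. In 4 probe rows of the first table the cells were exchanged, and these were left out.

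Background correction and quantile normalization used neqc (limma 3.58.1, R 4.3.3, offset 16, negative controls inferred from detection p), per table. Probes needed detection p under 0.01 on 5 or more arrays of any 1 group, and the brightest such probe stood for its gene. Tests were limma fits (lmFit, eBayes), threshold 0.05 after Benjamini-Hochberg adjustment, and the 2 effects in a joint fit of all 26 arrays. The script was tested on simulated data. Genes named are the called members plus Slc2a3, Slc16a1, Slc16a3, Slc1a5, Slc3a2, Slc7a5, Slc38a2 and Slc43a2, with others by class. Members and lists were chosen with earlier results of these data known.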

Additional observations from a re-analysis of the deposited data

Results flagged for a closer look

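Of 112 groups of values for the tested genes, 10 had a tumour far from the others of its group by Dixon's test at 95%, where chance gives about 1 in 20. Relapse replicate 3 was low for Slc16a6 (6.05) and Slc7a8 (6.03), and relapse replicate 1 was high for Slc7a3 (8.34). NT replicate 3 was low for Slc16a6 (5.85) and NT replicate 7 high for Slc1a3 (7.58). Among ctrl tumours, replicate 4 was low for Slc2a3 (8.89) and Slc6a17 (9.11), replicate 2 high for Slc38a1 (5.47), and replicate 5 low for Slc38a9 (5.55) and high for Slc7a2 (6.60).

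The EDT and relapse effects differed by limma's test for 4 genes: Slc38a1 by −2.17, Slc6a6 by −1.01, Slc2a8 by 0.86 and Slc7a2 by 1.28.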

How the results depend on the processing

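Of the transporter counts, several moved by over 1.5 times. In EDT against NT, 1 gene was higher and 1 lower with slide as a fixed block, and 0 higher and 1 lower on slide 5 alone; leaving out 1 tumour gave 3 to 6 higher and 5 to 7 lower. In relapse against ctrl, lower genes numbered 2 with median centring, 1 on slide 6 and 2 on slide 7, and higher genes 2 without the detection filter and 0 on slide 6; leaving out 1 tumour gave 2 to 5 higher and 3 to 8 lower. For the difference of effects, genes above 0 numbered 0 without background correction, with median centring and with slide as a fixed block, and 1 with offset 50, the authors' values, no filter and the replicate block, while those below 0 numbered 1 with median centring and with slide as a fixed block; leaving out 1 tumour gave 0 to 3 and 2 to 4. Over all genes EDT against NT gave 1045 calls with slide as a fixed block and 480 on slide 5, and relapse against ctrl 568 on slide 6 and 2442 on slide 7. Same-numbered tumours correlated at −0.05 to 0.18 in EDT and NT and −0.06 to 0.34 in relapse and ctrl, where 3 of 5 numbers correlated best with their own, a hint from the data and not the design. With the replicate block 5 were higher and 8 lower in relapse, and Slc2a6 and Slc3a2 passed (limma adjusted p = 0.0491 and 0.0444). The 8 include Slc43a1, from which no test is read, since it passed the filter only through ctrl. Slc43a1 is also counted as lower in the fit without relapse replicate 3. Slc38a1 and Slc6a9 did not pass in EDT with the replicate block, nor did Slc7a2 in the difference of effects. Leaving out 1 tumour brought past the threshold Slc38a2 (NT replicate 1 or 6), Slc7a6 (EDT replicate 7 or NT replicate 4), Slc16a6 (NT replicate 3) and Slc6a15 (NT replicate 6) in EDT, at −0.31, −0.43, −0.61 and 0.67 without the first named, Slc1a3 at 0.80 in relapse (ctrl replicate 2) and Slc7a7 at −0.66 in the difference (ctrl replicate 2). No called gene reversed in any setting run. The cause was not tested. The small signal of most probes limits what can be read.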
